A study of Homo sapiens with 5 samples.

Results

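RUNX1 peaks flanking H3K4me3 are RUNX1-bound regions that lie beside a promoter-type histone mark without overlapping it. They were chosen from the peak positions by one rule: a RUNX1 peak had to share no base with any H3K4me3 peak and lie at most 5 kb from one, measured edge to edge. Of 36736 RUNX1 peaks on chromosomes 1 to 22 and X, 3026 met the rule (8.24%), 11846 overlapped H3K4me3 (32.2%) and 21864 lay farther than 5 kb away and are called distal (59.5%). Among the 24890 RUNX1 peaks off the mark, flanking peaks made up 12.2% (95% Wilson interval 11.8 to 12.6%).

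The chromatin came from MOLT-4, a long-established line grown from a patient's T cell acute lymphoblastic leukaemia, for which the labels give no drug or genotype. CUT&RUN was used, in which micrococcal nuclease is tethered to antibody-bound sites through protein A/G and the DNA it cuts free is sequenced as read pairs. The peak lists of 3 libraries were analysed, made with antibodies to H3K4me3, to RUNX1 and to a target labelled SMA4, a name the labels do not spell out. Further samples with IgG as the antibody were not analysed here, and every list is from 1 library of 1 cell line, so no value has a replicate check. The groups compared are classes of peaks within these libraries.

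RUNX1 is a runt-domain transcription factor that binds DNA together with its partner CBFB and controls blood and T cell development. In T cell leukaemia it is known to bind enhancers as part of a complex with TAL1, GATA3 and E proteins, and also to bind near gene starts. H3K4me3 is deposited by SET1/MLL complexes around the start sites of active and poised genes, where it usually spans the nucleosomes on both sides of a nucleosome-poor start. An annotation of hg19, the build of the peak coordinates, was not used here, so no flanking peak was assigned to a gene, to a strand or to a motif, and no sequence is printed.

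The lists hold positions only, and no read depth can be taken from them. H3K4me3 had 13181 peaks used (median width 938 bp), RUNX1 had 36736 (median width 645 bp) and SMA4 had 1475 (median width 219 bp). The SMA4 list came from another batch folder and another peak-calling pipeline than the other lists, per the file headers, so target, batch and pipeline cannot be told apart in any SMA4 value. Intervals given with a share are Wilson intervals at the 95% level. They hold counting error alone, and peaks near each other are not independent.

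The first question was how close flanking RUNX1 peaks came to the mark. They crowded at its edge and thinned outward. The median gap was 1734.5 bp (quartiles 664 and 3202 bp), and the smallest gap was 0 bp, in 1 peak that touched its H3K4me3 peak. In all, 239 peaks (7.90%) lay within 200 bp of the mark, 1037 (34.3%) within 1000 bp and 1659 (54.8%) within 2000 bp. Counted in bins of 500 bp, 586 peaks started less than 500 bp from the mark and 450 lay at 500 to 999 bp. The next bins held 338, 284 and 260 peaks, and the outermost bin, at 4500 to 4999 bp, held 188.

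The limit of the rule did not fall at a gap in the distribution. The bin just outside, at 5000 to 5499 bp, held 200 peaks, and the bins from 7500 bp to 9999 bp held 143 to 164. Just inside the limit were peaks with gaps of 4993, 4996, 4996, 4996 and 4998 bp. Just outside were peaks with gaps of 5008, 5009, 5009, 5013 and 5014 bp.

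Flanking peaks were spread evenly over both sides of the mark in genome coordinates. The mark lay on the lower-coordinate side for 1528 peaks (50.5%, 95% interval 48.7 to 52.3%) and on the higher-coordinate side for 1498. The median gaps were 1770.5 and 1708.5 bp. Because gene strand was not used, this says nothing about upstream against downstream positions.

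The same distances were then taken after moving the RUNX1 peaks along each chromosome by fixed offsets, which keeps their number, width and spacing. With 20 shifts of 1 to 10 Mb, between 1475 and 2146 RUNX1 peaks came to flank H3K4me3 (mean 1658), so the observed 3026 was 1.83 times the shifted mean and above every shift. The ratio was 3.24 in the nearest bin, 2.60 at 500 to 999 bp and 1.22 at 4500 to 4999 bp. In 8 of the 10 bins the observed number exceeded all 20 shifts.

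Shifts over shorter distances gave a different picture. With 20 shifts of 10 to 100 kb, which keep each peak in its own neighbourhood, between 2782 and 3349 peaks flanked the mark (mean 3007), and the observed 3026 was 1.01 times that mean. The observed number exceeded every such shift only below 1000 bp, at 1.82 times the mean in the nearest bin and 1.41 times at 500 to 999 bp. In 6 of the 10 bins it fell below the lowest shift, and from 2000 to 4999 bp the 1368 observed peaks were 0.788 times the mean of 1736. By construction these shifts also move the 11846 peaks that sit on the mark, and some of them come to lie beside it.

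When only the 24890 off-mark RUNX1 peaks were moved, a step added after these values had been seen, the observed number was above every shift at both scales. Shifts of 1 to 10 Mb gave a mean of 1073 flanking peaks (range 936 to 1351) and a ratio of 2.82. Shifts of 10 to 100 kb gave a mean of 1760 (range 1598 to 2057) and a ratio of 1.72. The moved peaks had been chosen for sharing no base with the mark. After the shifts a mean of 225 (1 to 10 Mb) and 369 (10 to 100 kb) overlapped it and so did not count as flanking. The part of this in the ratios was not tested. In the nearest bin the ratios were 5.02 and 3.06, and at 4500 to 4999 bp they were 1.84 and 1.14. The crowding below 1000 bp was thus present against all 4 sets of shifts, whereas the excess between 2000 and 4999 bp was present against 3 and turned into a shortfall against the fourth. With RUNX1 peaks within 200 bp joined, the ratio within 5 kb to shifts of 1 to 10 Mb was 1.67, and the bins were not recomputed.

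**Figure D1:**
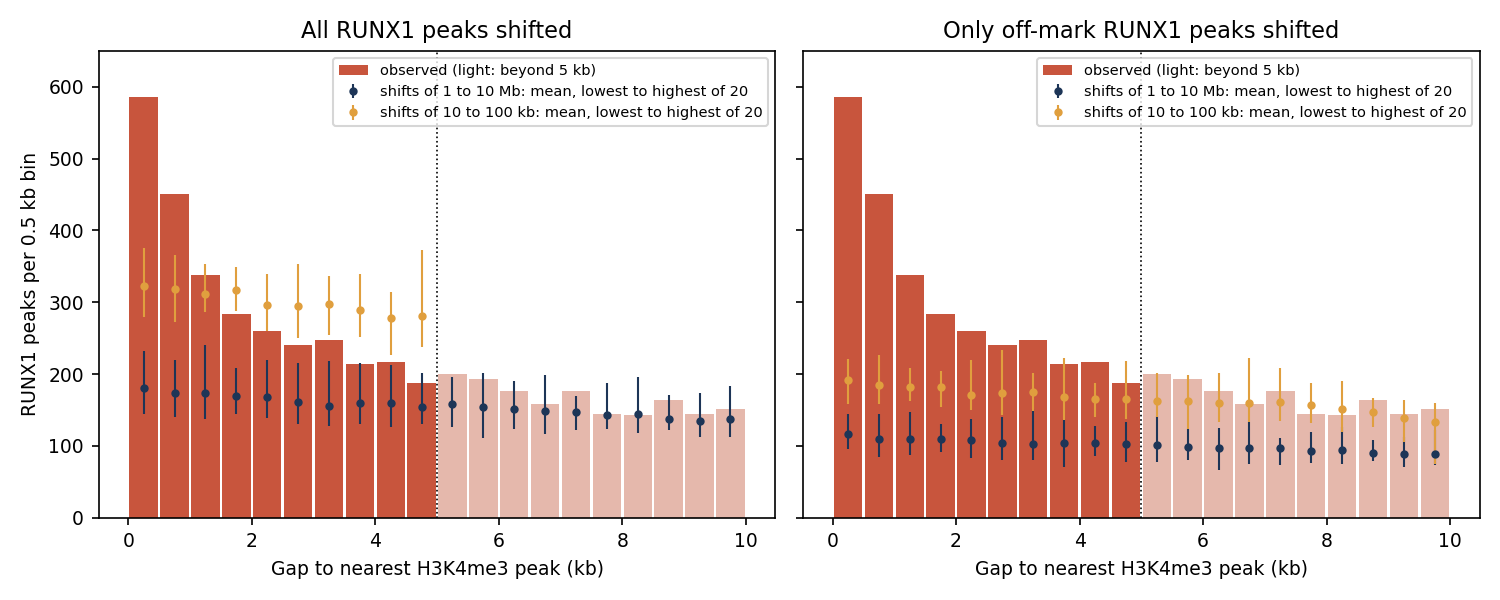
Number of off-mark RUNX1 peaks (vertical axis) per 0.5 kb of gap to the nearest H3K4me3 peak (horizontal axis, kb). Bars are observed numbers, dark up to the 5 kb limit, and points with bars are the mean and the lowest to highest of 20 fixed shifts of all RUNX1 peaks (left) or of off-mark peaks only (right). Local shifts beyond 5 kb are not drawn on the left, because a shift of 10 kb sets the peaks of the mark down there. The nearest bin, with 586 peaks, stands above every shift in both panels.

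RUNX1 peaks that overlap the mark covered far more of the sequence at its edge than flanking peaks did. Within H3K4me3 peaks, 71.4% of bases lay in RUNX1 peaks, against 4.66% of the 105 Mb outside the mark but within 5 kb of it and 0.490% of the sequence beyond. In the first 250 bp outside the mark, 34.0% of bases were covered by RUNX1 peaks reaching out of it and 0.564% by flanking peaks. From 500 to 749 bp those values were 4.59% and 1.96%. From 1000 to 1249 bp the order had turned, with 1.12% in peaks of the mark and 1.86% in flanking peaks, and flanking coverage was down to 1.28% at 4750 to 4999 bp. Flanking peaks thus covered more bases than peaks of the mark in every step from 1000 bp outward. The definition of the classes enters here, since a peak of the mark counts in a step only where it reaches out that far.

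**Figure D2:**
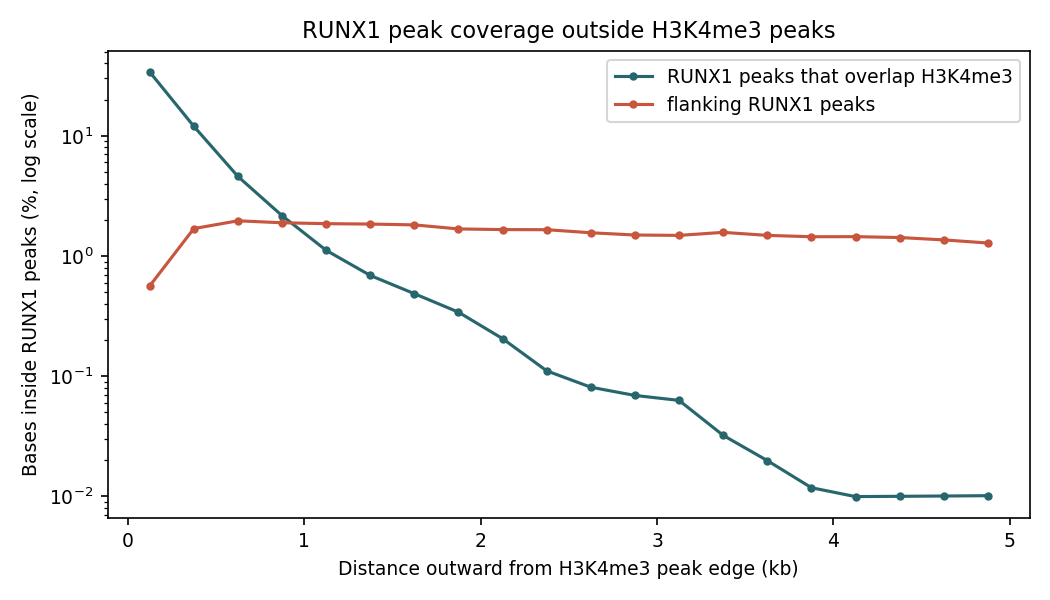
Share of bases inside RUNX1 peaks (vertical axis, %, log scale) against distance outward from the edge of the nearest H3K4me3 peak (horizontal axis, kb), in steps of 250 bp. RUNX1 peaks that overlap the mark fall from 34.0% in the first step to 1.12% at 1000 to 1249 bp, while flanking peaks stay between 1.28% and 1.96% from 250 bp outward.

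Flanking RUNX1 peaks were narrow. Their median width was 451 bp (quartiles 289 and 709 bp), against 537.5 bp for distal peaks (quartiles 327 and 802 bp) and 1012 bp for peaks on the mark (quartiles 671 and 1412 bp). The minimum width of the list, 221 bp, was shared by 8.0% of flanking peaks, 6.01% of distal peaks and 1.54% of overlapping peaks. Peaks wider than 1 kb made up 11.4%, 14.9% and 50.8% of these classes. By the rule, a peak wide enough to share a base with the mark leaves the flanking class, and the part of this in the widths was not tested.

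Flanking peaks near the mark were narrower than those farther out. The median width was 336.5 bp below 500 bp and 406 bp at 500 to 999 bp, and it was between 441 and 560.5 bp in the 8 bins from 1000 bp outward. In the nearest bin 74 of 586 peaks (12.6%, 95% interval 10.2 to 15.6%) had the minimum width, against 69 of 1368 (5.04%, 95% interval 4.0 to 6.33%) from 2000 bp outward. At gaps of 2 to 5 kb the median of 519 bp was close to the 516 bp of distal peaks with gaps of 5 to 10 kb.

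Most flanking peaks had another RUNX1 peak close by. The median gap to the next RUNX1 peak was 796 bp, against 7005.5 bp for overlapping and 6843.5 bp for distal peaks. Another RUNX1 peak lay within 1 kb of 54.9% of flanking, 32.3% of overlapping and 23.6% of distal peaks. Flanking peaks lie near a mark by the rule, and 88.1% of all H3K4me3 peaks held RUNX1. For 2184 flanking peaks (72.2%) the next RUNX1 peak towards the mark lay on that mark, at a median of 1153.5 bp (quartiles 353 and 2686 bp). That peak reached past the edge of the mark in 1541 of these cases (70.6%), by a median of 267 bp where it did. No pair of peaks in the RUNX1 list lies closer than 101 bp, and 516 flanking peaks (17.1%) were within 200 bp of another, and whether the peak caller split broader regions was not tested. Joining RUNX1 peaks within 200 bp left 2618 flanking peaks.

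The second question was whether the H3K4me3 peak beside a flanking RUNX1 peak held a RUNX1 peak of its own. Most did, and the share differed from that of other H3K4me3 peaks mainly among the narrowest marks. The 3026 flanking peaks had 2215 different nearest H3K4me3 peaks, 16.8% of the list. Of these neighbours 1989 held RUNX1 (89.8%, 95% interval 88.5 to 91.0%), against 87.8% of the other 10966 H3K4me3 peaks and 88.1% of all. The difference was 2.01 percentage points (95% interval 0.548 to 3.35, Newcombe's method). Neighbours of shifted RUNX1 peaks held RUNX1 in 88.7 to 91.3% (shifts of 1 to 10 Mb) and in 90.0 to 92.4% of cases (10 to 100 kb), so the observed share lay within the far shifts and below the lowest local shift. With H3K4me3 peaks within 1 kb joined, 92.6% of neighbours and 92.5% of others held RUNX1.

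Width of the mark changed that comparison. In the narrowest of 4 equal classes, 179 to 355 bp, 567 of 733 neighbours held RUNX1 (77.4%, 95% interval 74.2 to 80.2%), against 58.6% of the other narrow marks, a difference of 18.7 points (95% interval 15.0 to 22.2). The highest shares in shifts were 69.9% and 74.2% for far and local shifts. In the next class the shares were 91.5% and 91.3%, and in the 3 wider classes the interval of the difference included 0 (-2.47 to 2.46, -2.39 to 0.586 and -0.692 to 0.362 points). In the 2 widest classes 98.5% and 99.9% of the other marks held RUNX1, which leaves little room for a difference. Pooled over 10 strata of H3K4me3 width, the odds ratio was 1.88 (95% interval 1.60 to 2.21), against 1.22 without strata. These classes and strata were not recomputed with H3K4me3 peaks within 1 kb joined, where the shares over all widths were 92.6% and 92.5%.

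Marks with a flanking RUNX1 peak also lay more often wholly inside a RUNX1 peak, a measure added after the lists had been seen. This held for 909 of 2215 neighbours (41.0%, 95% interval 39.0 to 43.1%) and for 25.1% of the others. By width class from narrow to wide, the shares were 63.2% against 45.1%, 49.3% against 39.6%, 22% against 12.7% and 11.7% against 5.78%, and the interval of each difference lay above 0. In each class the neighbours' share exceeded the highest value among the far shifts (56.7%, 44.7%, 17.7% and 8.83%) and among the local shifts (62.7%, 48.8%, 17.6% and 10.2%). The margin over local shifts was small in the 2 narrowest classes. Where a narrow neighbour held RUNX1, the widest RUNX1 peak on it had a median width of 1003 bp, while the narrow neighbours themselves had a median of 223 bp. With H3K4me3 peaks within 1 kb joined, 36.3% of neighbours and 19.8% of others lay wholly inside a RUNX1 peak.

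Neighbouring marks were narrower than the rest. Their median width was 655 bp (quartiles 277 and 1392 bp), against 987 bp for other H3K4me3 peaks, and shifted RUNX1 peaks had neighbours with medians of 941 to 1064 bp (far) and 857 to 1042 bp (local). The narrowest class of marks had 33.1 flanking peaks per 100 H3K4me3 peaks, the second 25.1, the third 15.3 and the widest 18.4. The narrowest class alone supplied 1090 of the 3026 flanking peaks (36.0%). With H3K4me3 peaks within 1 kb joined, the median was 1046 bp for neighbours and 1239 bp for others. A wide mark turns the RUNX1 peaks it reaches into overlapping ones, and the part of this in the counts was not tested.

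**Figure D3:**
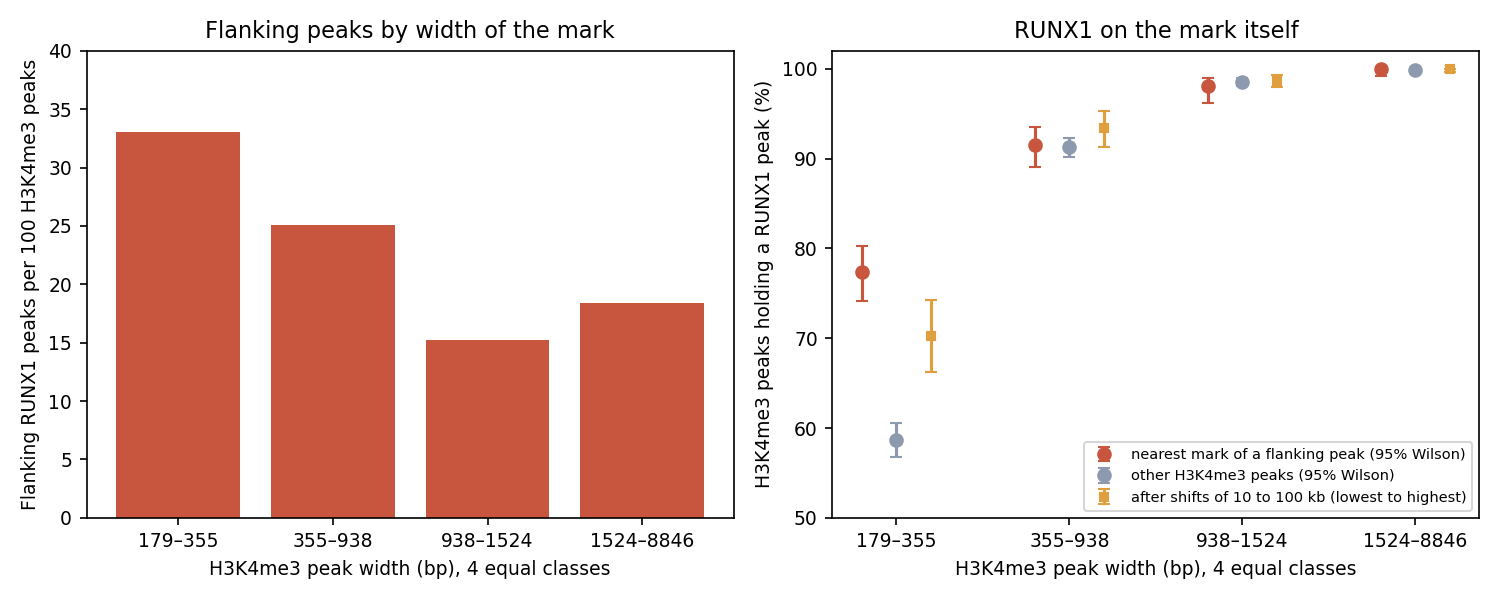
Left, flanking RUNX1 peaks per 100 H3K4me3 peaks in 4 equal classes of H3K4me3 width (bp). Right, percentage of H3K4me3 peaks holding a RUNX1 peak in the same classes, for the nearest mark of a flanking peak and for other marks (95% Wilson intervals) and for the neighbours of peaks after 20 shifts of 10 to 100 kb (mean, lowest to highest). Neighbours and others part in the narrowest class, at 77.4% and 58.6%.

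The remaining 226 neighbours held no RUNX1 peak. They were mostly very narrow, with a median of 236.5 bp, and 29.6% had the minimum width of 179 bp. Their 319 flanking peaks lay closer to the mark (median gap 1006 bp) than the 2707 flanking peaks of RUNX1-holding marks (median 1832 bp). The share of flanking peaks whose neighbour held RUNX1 was 80.4% (95% interval 77.0 to 83.4%) below 500 bp and between 86.6% and 94.7% in the bins beyond. Of all 1565 H3K4me3 peaks without RUNX1, 920 (58.8%) had a RUNX1 peak within 5 kb. For 731 of those 920 the nearest RUNX1 peak overlapped another H3K4me3 peak, so it was not a flanking one.

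Many flanking peaks shared a mark. Of the 2215 neighbours, 1634 had 1 flanking peak, 411 had 2, 125 had 3, 32 had 4, 11 had 5 and 2 had 6. The 581 neighbours with at least 2 carried 46.0% of all flanking peaks. In 219 of them the flanking peaks lay on both sides of the mark, and in 362 (62.3%) all lay on 1 side. Only 176 flanking peaks (5.82%) had a second H3K4me3 peak within 5 kb on the far side, so that they sat between marks. Those were narrower, with a median of 361 bp against 460.5 bp, in openings of 485 to 9884 bp between the marks.

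The marks with the most flanking peaks showed both arrangements. They are the 2 with 6 flanking peaks and, of 11 tied at 5, the 3 widest. At chr17:62097079-62098054, an H3K4me3 peak of 976 bp with 1 RUNX1 peak on it, 3 flanking peaks lay on each side at gaps of 1907 to 4903 bp. They were 221 to 764 bp wide. At chr10:74091727-74091989, a mark of 263 bp with 1 RUNX1 peak on it, 4 flanking peaks lay on one side and 2 on the other, the widest of them 2931 bp at a gap of 1152 bp. At chr22:40322581-40323961, a mark of 1381 bp with 2 RUNX1 peaks on it, all 5 flanking peaks lay on the higher-coordinate side and were 221 to 308 bp wide. The other two were chr19:54885583-54887315, with 5 flanking peaks of 455 to 1873 bp, and chr16:57677830-57678228, with 5 of 221 to 742 bp. None of the flanking peaks at these 5 marks overlapped SMA4. With so few peaks, this does not set the 5 marks apart from the 1.02% of all flanking peaks. At all 13 marks with 5 or more flanking peaks, 3 of the 67 overlapped SMA4.

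Of the 10 widest flanking peaks, 6 lay beside marks of only 194 to 454 bp. The widest, chr3:45909830-45915602, spanned 5773 bp and lay 2855 bp from an H3K4me3 peak of 298 bp. The third, chr3:179672891-179677820 (4930 bp), lay 1232 bp from a mark of 244 bp. The fifth, chr2:240243227-240247244 (4018 bp), lay 1568 bp from a mark of 194 bp, and the tenth, chr21:36391816-36395088 (3273 bp), lay 3943 bp from a mark of 212 bp. The others lay beside marks of 2012 bp and more, and a pair of them shared 1 broad H3K4me3 peak of 4119 bp at chr14:98628718-98632836, which held 4 RUNX1 peaks. Its flanking peaks chr14:98633279-98636921 (3643 bp, gap 442 bp) and chr14:98637385-98642779 (5395 bp, gap 4548 bp) followed each other on the same side. All 10 of these peaks had a neighbour holding RUNX1, as did 89.5% of all flanking peaks. SMA4 overlapped 4 of the 10, against 1.02% of all flanking peaks and 11 of the 115 of 1503 bp and above.

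**Figure D4:**
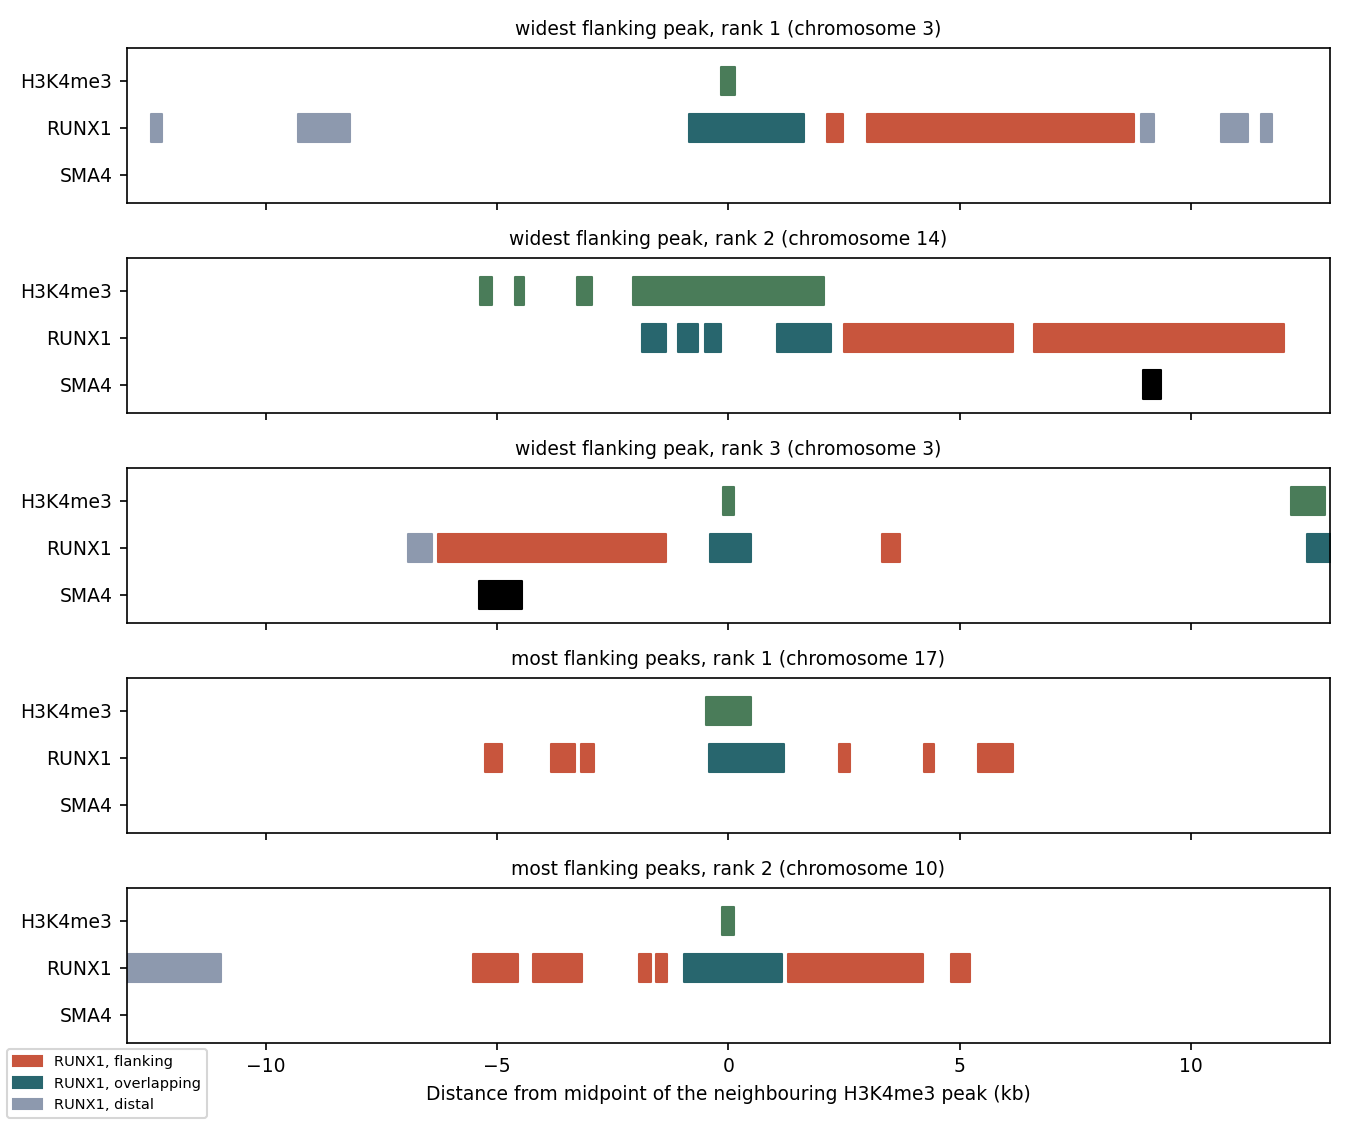
Peaks of the 3 lists around the marks beside the 3 widest flanking RUNX1 peaks and around the 2 marks with the most flanking peaks, as distance from the midpoint of the neighbouring H3K4me3 peak (horizontal axis, kb). RUNX1 peaks are coloured by class. The widest flanking peak spans 5773 bp beside a mark of 298 bp, and the 6 flanking peaks on chromosome 17 lie 3 on each side.

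The third question was whether flanking RUNX1 peaks carried SMA4. Few overlapped an SMA4 peak, while the share with one within 5 kb was larger than in each other class taken whole. Of 3026 flanking peaks 31 overlapped an SMA4 peak (1.02%, 95% interval 0.723 to 1.45%), against 2.56% of all RUNX1 peaks, 2.62% of distal peaks and 2.84% of peaks on the mark. The flanking share was lower than the distal one by 1.59 percentage points (difference -1.59, 95% interval -1.97 to -1.12) and lower than the overlapping one (difference -1.82, 95% interval -2.26 to -1.31). The odds ratio against distal peaks was 0.385 (95% interval 0.268 to 0.554). The order depended on how near an SMA4 peak had to be. With an SMA4 peak within 1 kb counted, the share was 1.95% in flanking, 3.23% in distal and 3.25% in overlapping peaks, against 3.13% of all RUNX1 peaks.

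Within 5 kb the order was reversed. An SMA4 peak lay on or within 5 kb of 182 flanking peaks (6.01%, 95% interval 5.22 to 6.92%), against 4.88% of distal and 4.03% of overlapping peaks and 4.70% of all RUNX1 peaks. The flanking share was higher than the distal one by 1.13 points (95% interval 0.284 to 2.08) and higher than the overlapping one by 1.99 points (1.11 to 2.95). The odds ratio against distal peaks was then 1.25 (95% interval 1.06 to 1.47), and 1.32 (1.12 to 1.56) over strata of RUNX1 width. The same SMA4 peak can count for several RUNX1 peaks, and these intervals do not allow for that. Flanking peaks lay closer to the next RUNX1 peak of any class than distal ones did, with median gaps of 796 and 6843.5 bp. Flanking peaks thus carried an SMA4 peak less often, while a larger share had one within 5 kb. By the rule each flanking peak has a mark within the same 5 kb, so SMA4 on that mark can count. Of the flanking peaks without SMA4, 78 had a neighbouring mark that overlapped SMA4, and the part of this in the share was not tested. With SMA4 counted within 5 kb, flanking peaks were not compared with nearer distal peaks alone. The SMA4 list of 1475 peaks is short, so a RUNX1 peak without an SMA4 peak need not lack the target.

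Direct SMA4 overlap was most frequent in the widest RUNX1 peaks. From the narrowest to the widest of 10 width strata the share went from 0.204 to 9.57% in flanking, from 1.24 to 5.46% in overlapping and from 0.360 to 11.6% in distal peaks. It rose at every step only in distal peaks. The flanking share was 2% in stratum 7 and 0.787% in stratum 9, and the overlapping share was 0.377% in stratum 3. The part of peak length alone in this was not tested. Over these strata of RUNX1 width the pooled odds ratio against distal peaks was 0.443 (95% interval 0.307 to 0.640), and the flanking share was the lower one in 10 of 10 strata. Against peaks on the mark it was 0.703 with an interval that included 1 (0.477 to 1.03), and the flanking share was lower in 7 of 10 strata. In the widest stratum, 1503 bp and above, 11 of 115 flanking peaks overlapped SMA4 (9.57%, 95% interval 5.43 to 16.3%), between the 5.46% of overlapping and the 11.6% of distal peaks. In the other 9 strata together the shares were 0.687% (20 of 2911), 2.14% and 2.16%.

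Low SMA4 overlap continued beyond 5 kb. Off-mark RUNX1 peaks overlapped SMA4 in 0.579% of cases below 1 kb, 1.45% at 1 to 2 kb and 1.17% at 2 to 5 kb. The share was 1.51% at 5 to 10 kb, 1.68% at 10 to 20 kb, 1.98% at 20 to 50 kb, 2.04% at 50 to 100 kb and 3.83% beyond. Intervals of neighbouring classes overlapped except at the last step, where 50 to 100 kb reached up to 2.50% and the class beyond began at 3.44%. Median width hardly changed over the classes from 2 kb outward, at 516 to 543 bp. Against distal peaks with gaps of at most 20 kb, a comparison chosen with the lists already known, the odds ratio was 0.630 (95% interval 0.411 to 0.964) without strata and 0.745 (0.483 to 1.15) over strata of width, which includes 1. Against those with gaps of at most 10 kb it was 0.799 over strata (0.464 to 1.37). A difference from distal peaks of the same width was thus not detectable within these distances.

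**Figure D5:**
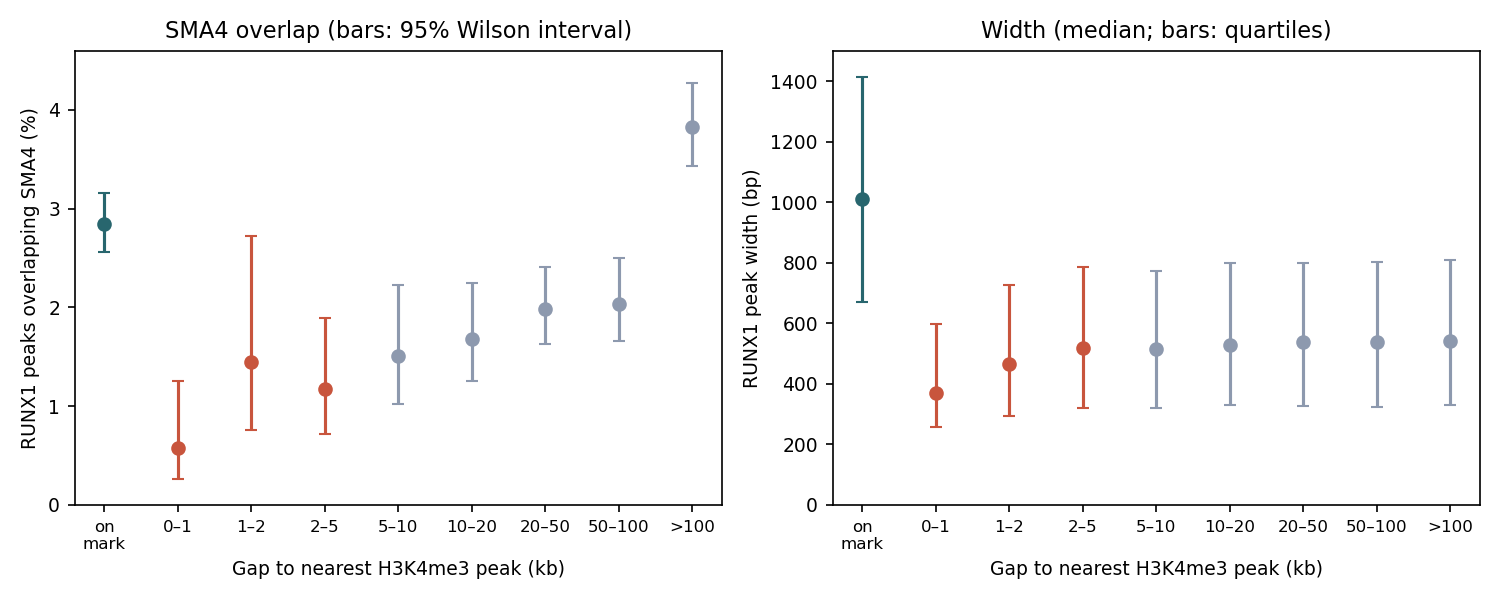
Left, percentage of RUNX1 peaks overlapping an SMA4 peak, with 95% Wilson intervals, for peaks on the mark and for off-mark peaks by gap to the nearest H3K4me3 peak (kb). Right, median width of the same RUNX1 peaks with quartiles (bp). Flanking classes, up to 5 kb, hold 0.579 to 1.45%, and the class beyond 100 kb holds 3.83%.

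The 31 flanking peaks with SMA4 were wider than those without it. Their median width was 823 bp (quartiles 515 and 2142 bp) against 448 bp without SMA4, and 19 of them were among the 757 widest flanking peaks, of 709 bp or more. The median gap to the mark was 2027 bp (quartiles 1211.5 and 3669 bp), against 1729 bp (659.5 and 3196 bp) without SMA4. Within 1 kb of the mark lay 6 of the 31, against 34.3% of all flanking peaks. The neighbour held RUNX1 in 28 of the 31 cases, close to the 2707 of all 3026 flanking peaks (89.5%). It overlapped SMA4 itself in 8 of the 31, against 78 of the 2995 flanking peaks without SMA4. More than 1 SMA4 peak lay on 4 of the 31, and 35 SMA4 peaks lay on the 31 in all. None of the 176 peaks between marks overlapped SMA4 (95% interval 0 to 2.14%), which does not set them apart from the 1.02% of all flanking peaks.

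The widest flanking peak with SMA4 was the chromosome 14 peak of 5395 bp beside the broad mark, followed by the chromosome 3 peak of 4930 bp. The third, chr4:134063811-134068342 (4532 bp), held 2 SMA4 peaks and lay 4846 bp from a mark of 454 bp. The fifth, chr4:119094017-119097276 (3260 bp), was the only one of the first 10 whose neighbour, a mark of 747 bp at a gap of 3801 bp, held no RUNX1. At chr1:158302930-158305357 (2428 bp) the flanking peak held 2 SMA4 peaks and the H3K4me3 peak beside it, 3892 bp wide and 911 bp away, held 1 more. Seen from the other list, 95 SMA4 peaks (6.44%) lay off the mark but within 5 kb of it. With SMA4 peaks shifted relative to H3K4me3 peaks, the highest count was 60 in far shifts and 79 in local shifts. Of these 95, 68 lay on a RUNX1 peak of any class (71.6%). The share was 56.1% of the 1059 SMA4 peaks beyond 5 kb and 96.6% of the 321 on the mark. Among the 95, 30 lay on a flanking RUNX1 peak and 39 on a RUNX1 peak reaching out of the mark, and an SMA4 peak can count in both.

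The shares of neighbouring and other marks that overlapped SMA4 were 54 of 2215 (2.44%, 95% interval 1.87 to 3.17%) and 2.38%, with 2.39% for all H3K4me3 peaks, and the interval of the difference included 0 (-0.583 to 0.835 points). Among the narrowest marks they were 13 of 733 (1.77%) and 23 of 2563 (0.897%), a difference of 0.876 points whose interval lay just above 0 (0.0173 to 2.15). In the 3 wider classes the interval included 0.

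Flanking peaks were found on every chromosome used. They made up between 9.43% (chromosome 10) and 24.7% (chromosome 19) of the off-mark RUNX1 peaks, with a median of 11.4% over 23 chromosomes. The highest shares were on chromosome 19 (181 of 732), chromosome 16 (17.8%) and chromosome 17 (16.8%). The density of H3K4me3 peaks was 16.4, 6.26 and 10.1 per Mb on these chromosomes and 3.90 per Mb on chromosome 10. Share and density did not always go together: chromosome 21 had 15.5% at 3.29 marks per Mb, chromosome 20 had 9.56% at 5.48 and chromosome 22 had 12.7% at 6.29.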

How the data were processed

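The authors deposited 1 peak list per library with chromosome, start, end and peak name only. Per the file headers, H3K4me3 and RUNX1 peaks came from MACS2 in batch 2 and SMA4 peaks from cutruntools (q threshold 0.01) in batch 3. MACS2, SEACR and hg19 stand in the submitters' processing notes. For the H3K4me3 and RUNX1 lists the aligner and threshold were not given in the sources used here. Coordinates are hg19, 1-based.

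A gap is the number of bases between peak edges, and an overlap is at least 1 bp. Shifts moved all RUNX1 peaks of a chromosome, or only the off-mark ones where stated. The offsets were 1, 2 and so on up to 10 Mb, or 10 to 100 kb, in both directions and around the highest peak end, with nothing drawn at random. For the count of SMA4 peaks beside the mark, SMA4 peaks were shifted relative to H3K4me3 peaks. They can place peaks in unmappable sequence, and no p-value was made. Pooled odds ratios are Mantel-Haenszel estimates over strata of equal size. Peaks named are the 10 widest, the 10 widest with SMA4, the 5 marks with most flanking peaks (ties by mark width, then position) and the 5 on each side of the limit. Members and measures were chosen with earlier results of these data known. Python 3.11.15, numpy 2.4.6, pandas 2.3.3 and scipy 1.17.1 were used, and the scripts were tested on simulated data. The planned steps that need an hg19 annotation or genome (genes, promoter side, motifs, sequences) were not run.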

Additional observations from a re-analysis of the deposited data

How the results depend on the processing

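Each result was recomputed with another distance limit, without peaks at the minimum width, with neighbouring peaks joined and with all sequences in the files. Of the values under alternatives, 45 stayed within the main value's 95% interval (for the number of peaks and the ratio to shifts, within 1.5 times) and 27 moved outside it. A further 2 reversed: with SMA4 within 5 kb the odds ratio was 1.25 and, over strata of width, 1.32, and 6.01% of flanking peaks counted (the cause was not tested). The number of flanking peaks was 1659 at 2 kb and 4678 at 10 kb. The ratio to shifts was 1.01 with shifts of 10 to 100 kb and 2.82 with only off-mark peaks moved by 1 to 10 Mb. At limits of 2 and 10 kb the median gap was 749 and 3333.5 bp, the neighbours' median width 576 and 738 bp, the flanking peaks' median width 405 and 478 bp, and the share between marks 3.56 and 9.81%. At 2 kb 87.9% of neighbours held RUNX1, and at 10 kb 38.6% lay inside a RUNX1 peak. Without minimum-width peaks the median widths were 728 bp (neighbours) and 489 bp (flanking). With H3K4me3 peaks within 1 kb joined, 92.6% of neighbours held RUNX1, 36.3% lay inside a RUNX1 peak and their median width was 1046 bp. With RUNX1 peaks within 200 bp joined the median gap was 1978.5 bp and the median width 482 bp. SMA4 within 1 kb gave 1.95% and an odds ratio of 0.595. Against distal peaks up to 10 or 20 kb the odds ratio was 0.674 or 0.630 without strata and 0.745 over strata at 20 kb. Comparisons with only off-mark peaks moved, with nearer distal peaks, with SMA4 within 5 kb and of marks inside RUNX1 peaks were chosen after seeing the data. No paired analysis was possible because each target had 1 library. Depth is unknown, so a site without a peak need not lack the protein or mark.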
